A study of Homo sapiens with 16 samples.

Results

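The Sprouty and SPRED genes measured were SPRY1, SPRY2, SPRY4, SPRED1 and SPRED2. They were taken by the gene name printed on the array, with every probe that is not a control, which gave 5 genes with 7 probes among 18841 named genes with 41000 probes. SPRED1 and SPRED2 had 2 probes each and the 3 Sprouty genes 1 probe each. The cells were undifferentiated Caco-2, a line from a human colon carcinoma, and each of the 16 arrays held RNA from 1 flask. In MED-CTL the cells stayed in medium with a low share of fetal calf serum. The other groups had in that medium gliadin digested with pepsin and trypsin (PT-G), the same enzyme procedure with no protein substrate (PT), or the synthetic gliadin peptide p31-43 at 150 µg/ml, the only one of these agents for which the labels give a concentration. By the study's methods, heating had inactivated the pepsin and trypsin of both preparations before the cells received them. Arrays called with enzymes below are the PT and PT-G arrays. Every stimulation lasted 6 h, and every group had 4 arrays from 4 separate experiments. The cells of all groups were detached with trypsin before RNA was extracted.

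Signals from a growth factor receptor pass through the adaptor GRB2 to RAS, and from RAS through a chain of kinases to ERK, which enters the nucleus and changes transcription. Sprouty and SPRED proteins restrain this pathway. Sprouty genes are themselves transcribed when ERK is active, and their proteins, held at the plasma membrane and modified on a tyrosine, bind partners such as GRB2 and the ubiquitin ligase CBL and lower the signal that made them. SPRED proteins share the cysteine-rich Sprouty domain, carry in addition an EVH1 domain, and bring the RAS inactivator neurofibromin (NF1) to the membrane. In the intestinal epithelium the same pathway carries the growth signal of the EGF receptor.

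In the GRCh38.p14 assembly of RefSeq, SPRY1 lies at chr4:123396795-123403760 on the plus strand and SPRED1 at chr15:38252836-38357249 on the plus strand. On the minus strand lie SPRY2 at chr13:80335976-80341126, SPRY4 at chr5:142310430-142325021 and SPRED2 at chr2:65307175-65432599. RefSeq promoter windows were found for the 5 genes. The 250 bases before the outermost start are shown for the Sprouty genes SPRY1 and SPRY2, whose arrays moved together below, and for SPRED1 beside them. The windows are chr4:123396545-123396794 (plus strand), chr13:80341127-80341376 (minus strand) and chr15:38252586-38252835 (plus strand). Capitals mark matches, on either strand, to an ETS motif (CCGGAA), an EGR motif (GCGNGGGCG) or the core of a CRE motif (TGACG).
SPRY1: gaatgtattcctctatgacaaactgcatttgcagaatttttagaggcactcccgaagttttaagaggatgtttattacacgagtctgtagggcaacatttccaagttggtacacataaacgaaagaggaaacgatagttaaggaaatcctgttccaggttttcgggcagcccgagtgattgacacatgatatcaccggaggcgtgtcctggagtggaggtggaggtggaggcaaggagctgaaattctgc
SPRY2: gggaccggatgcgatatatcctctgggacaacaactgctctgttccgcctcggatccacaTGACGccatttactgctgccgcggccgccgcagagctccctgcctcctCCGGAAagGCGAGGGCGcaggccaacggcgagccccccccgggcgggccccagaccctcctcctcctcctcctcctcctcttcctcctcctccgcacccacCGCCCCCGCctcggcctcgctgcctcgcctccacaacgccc
SPRED1: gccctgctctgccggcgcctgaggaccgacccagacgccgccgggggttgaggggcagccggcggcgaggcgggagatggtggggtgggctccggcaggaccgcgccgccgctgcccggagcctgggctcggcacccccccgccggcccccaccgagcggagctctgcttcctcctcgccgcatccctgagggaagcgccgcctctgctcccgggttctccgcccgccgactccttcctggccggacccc
The window of SPRY2 held 1 ETS, 1 CRE core and 2 EGR matches, and those of SPRY1 and SPRED1 held none. A second start of SPRY1, 1591 bases inside the gene, had 1 ETS and 1 EGR match before it. The inner starts of SPRY2, 1018 and 1467 bases inside the gene, had no match in their windows. The 1 start of SPRY4 in the table lies 774 bases inside the annotated gene, with 1 EGR and 1 CRE core match before it. Its letters are not printed, since they may overlap an exon of a longer transcript. Of 35116 windows of 300 bases in the table, 17.2% held the ETS letters, 9.43% the EGR letters and 24.6% the CRE core. No window of the 3 Sprouty genes held an AP-1 match (TGANTCA, in 7.71% of windows), a full CRE (TGACGTCA, in 1.85%) or a CArG box (in 1.29%). Of the 2 starts of SPRED2 in the table, the outer one had 1 CRE core match, after the start, and the inner one, 65821 bases inside the gene, 2 AP-1 matches, 1 that ends on the start base and 1 after it. These matches are a description of the letters only.

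Values are log2 intensities, quantile-normalized by the authors, and a difference of 1 on this scale is a 2-fold difference. Differences were tested in limma with 1 model of the 4 conditions, and a probe is called, and said to have risen, at a Benjamini-Hochberg adjusted p under 0.05 over the 40982 probes tested. The median foreground of an array lay between 153 and 410 against a local background of 48 to 65, and 25752 to 31848 of its probes were well above background. Arrays whose scanner files carry the same date are called a run. There were 4 runs with 1 array of each condition. Replicate n was in run n, except that MED-CTL replicate 1 was in run 2 and MED-CTL replicate 2 in run 1. The arrays lay on 5 slides, and PT replicate 3 and p31-43 replicate 4 shared a slide with no other array. VIL1, CDH1, EPCAM, KRT8 and KRT18 of 8 epithelial markers had log2 intensities of at least 15.66 on every array. The other epithelial markers were dimmer, KRT20 at 7.584 to 8.679, CDX2 at 8.615 to 11.257 and CDX1 at 5.993 to 6.235. CDX1 was well above background on 1 array only. PTPRC of 3 leukocyte markers, CDH5 of 3 endothelial markers and COL1A2 of 4 fibroblast markers were well above background on none. The others of these lists, CD3E, CD79A, PECAM1, VWF, COL1A1 and COL3A1, were well above background on all 16 arrays, and DCN on 8. The summed linear intensity of 4 fibroblast markers was 786.5 to 1075 in MED-CTL, 728.2 to 943.4 in p31-43, 699 to 830.3 in PT and 650.2 to 991.4 in PT-G. Of the 8 epithelial markers KRT20 was called for PT-G over MED-CTL (0.63 higher, SE 0.12, limma, adjusted p = 0.025). The mean of CDX2, an intestinal transcription factor, was 10.59 in MED-CTL, 10.61 in p31-43, 9.95 in PT and 9.87 in PT-G. With the run added to the model as a block, CDX2 was called lower for PT-G (−0.72, limma, adjusted p = 0.0349) and not for PT (−0.65, limma, adjusted p = 0.0521). COL3A1 was called lower for both (limma, adjusted p = 0.0202 and 0.00912) and KRT20 higher for both (limma, adjusted p = 0.000463 and 0.00206). Of all probes this block called 2.55% and 3.44% lower and 3.18% and 3.06% higher for PT-G and PT. The part of these markers in the results below was not tested. In RNA from whole flasks, a change in the number of cells that express a gene and a change in RNA per cell cannot be told apart.

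SPRY1, SPRY2 and SPRY4 rose under both enzyme preparations. No SPRED probe was called without a block in the model, and 1 probe each of SPRED1 and SPRED2 was called for PT-G against MED-CTL with the run or the replicate number as a block (values below). For PT-G against MED-CTL 3 of the 7 probes were called higher and 0 lower, where 0.583% of all probes tested were called higher and 0.346% lower. For PT against MED-CTL it was again 3 of 7 higher and 0 lower, with 0.434% of all probes called higher and 0.395% lower. The median change of the 7 probes was 0.72 for PT-G and 0.45 for PT, against −0.0056 and −0.0125 over all probes. Both comparisons use the same MED-CTL arrays.

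**Figure D1:**
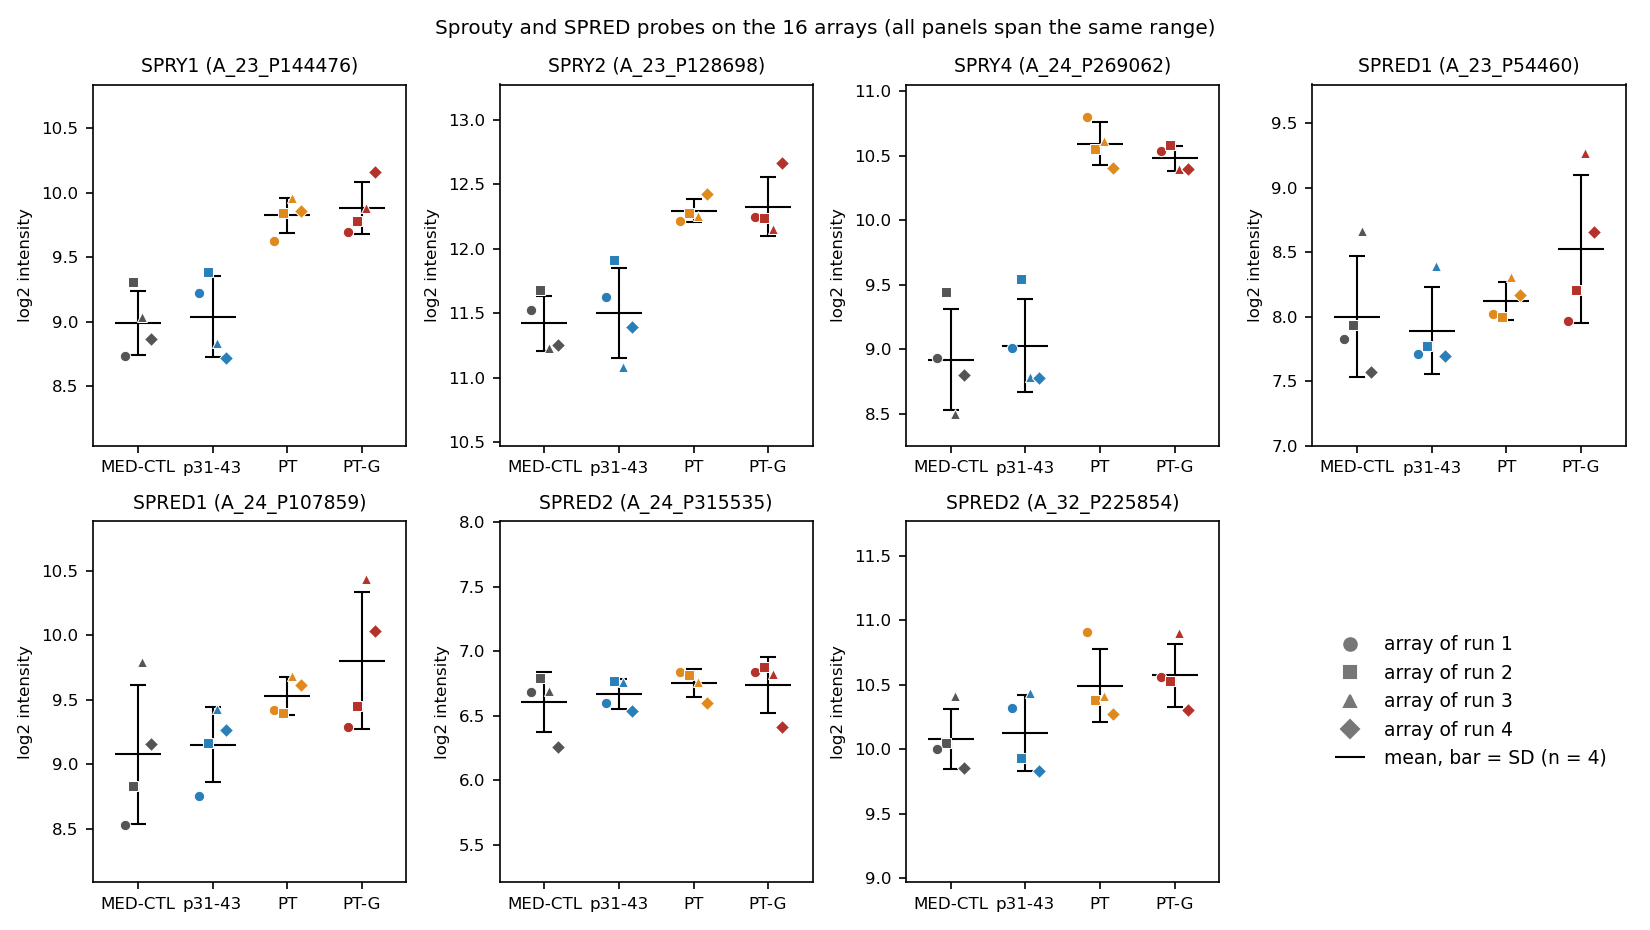
Log2 intensity (y axis, every panel spanning the same range) of the 7 Sprouty and SPRED probes in the 4 conditions (x axis); each point is 1 array with its run given by the shape, the horizontal line is the mean and the bar the SD of 4 arrays. The 8 PT and PT-G arrays lie above all 8 MED-CTL and p31-43 arrays for SPRY1, SPRY2 and SPRY4, and the conditions overlap for SPRED1 and SPRED2.

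SPRY4 encodes a Sprouty protein that restrains signalling through RAS. Its log2 intensity (probe A_24_P269062) was 9.44, 8.93, 8.50 and 8.80 on MED-CTL arrays 1 to 4, and 9.01, 9.54, 8.79 and 8.77 on the p31-43 arrays. On the PT arrays it was 10.80, 10.55, 10.62 and 10.40, and on the PT-G arrays 10.53, 10.59, 10.40 and 10.40. The lowest array of either enzyme preparation thus lay well above the highest array without enzymes, and the 4 PT-G arrays were the closest to each other. Means were 8.92 ± 0.39 in MED-CTL, 9.03 ± 0.36 in p31-43, 10.59 ± 0.17 in PT and 10.48 ± 0.10 in PT-G (SD, n = 4 each).
SPRY4 rose 2.95-fold under PT-G (log2 difference 1.56, SE 0.19, limma, adjusted p = 0.00146) and 3.19-fold under PT (1.67, SE 0.19, limma, adjusted p = 0.00118). The PT-G difference was larger than that of 99.9% of all probes. Within the runs it lay between 1.14 and 1.89 for PT-G and between 1.11 and 2.11 for PT, and run 2, where the MED-CTL array was brightest, gave the smallest difference for both. The call held without any 1 of the arrays compared, with adjusted p-values up to 0.00889 for PT-G and 0.00707 for PT in limma. It was lost for PT when only PT and MED-CTL entered the fit (limma, adjusted p = 0.0527).

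SPRY2, the Sprouty protein best known for binding CBL and GRB2, had log2 intensities (probe A_23_P128698) of 11.68, 11.52, 11.23 and 11.26 on MED-CTL arrays 1 to 4. The p31-43 arrays had 11.62, 11.91, 11.08 and 11.39, the PT arrays 12.22, 12.28, 12.26 and 12.42, and the PT-G arrays 12.25, 12.24, 12.16 and 12.66. As for SPRY4, the arrays with enzymes and those without did not overlap, here with a narrower gap, and PT-G replicate 4 was the highest of the 16. The means were 11.42 ± 0.21 in MED-CTL, 11.50 ± 0.35 in p31-43, 12.30 ± 0.09 in PT and 12.33 ± 0.23 in PT-G (SD, n = 4 each).
SPRY2 rose 1.87-fold under PT-G (log2 difference 0.90, SE 0.16, limma, adjusted p = 0.0162) and 1.83-fold under PT (0.87, SE 0.16, limma, adjusted p = 0.0229). Each run gave a higher value with enzymes, by 0.56 to 1.41 for PT-G and by 0.60 to 1.17 for PT. The call for PT-G was lost without PT-G replicate 4 (0.79, limma, adjusted p = 0.0573), and that for PT held without MED-CTL replicate 1 (limma, adjusted p = 0.0251) but was lost without any of the other 7 arrays (limma, adjusted p = 0.0509 to 0.0762). A block for the run in the model lowered both (limma, adjusted p = 0.00382 with PT-G, 0.00458 with PT).

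SPRY1, a Sprouty protein that also limits receptor signals to RAS, was measured by probe A_23_P144476. Its log2 intensities were 9.31, 8.73, 9.04 and 8.87 on MED-CTL arrays 1 to 4, and 9.22, 9.39, 8.83 and 8.72 on the p31-43 arrays. On the PT arrays they were 9.63, 9.85, 9.96 and 9.86, and on the PT-G arrays 9.69, 9.78, 9.88 and 10.16. Again no array with enzymes reached down to the highest array without, p31-43 replicate 2. The means were 8.99 ± 0.25 in MED-CTL, 9.04 ± 0.32 in p31-43, 9.82 ± 0.14 in PT and 9.88 ± 0.20 in PT-G (SD, n = 4 each).
SPRY1 rose 1.85-fold under PT-G (log2 difference 0.89, SE 0.16, limma, adjusted p = 0.0162) and 1.78-fold under PT (0.83, SE 0.16, limma, adjusted p = 0.0270). The within-run differences were 0.47 to 1.29 for PT-G and 0.54 to 0.99 for PT. The PT-G call was lost without MED-CTL replicate 2 (0.81, limma, adjusted p = 0.0639) or PT-G replicate 4 (0.80, limma, adjusted p = 0.0605), and the PT call held only without MED-CTL replicate 1 or PT replicate 1 (limma, adjusted p = 0.0208 and 0.0425) and not without any of the other 6 arrays (limma, adjusted p = 0.0536 to 0.100). The run block again lowered both (limma, adjusted p = 0.00654 with PT-G, 0.00921 with PT).

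For each of these 3 genes the array of run 2 was the highest in both MED-CTL and p31-43. Deviations from the condition means correlated over the 16 arrays with a Pearson r of 0.71 between SPRY1 and SPRY2, 0.62 between SPRY2 and SPRY4 and 0.47 between SPRY1 and SPRY4. The same r between a Sprouty and a SPRED probe lay between −0.52 and 0.41. The points share libraries and runs, and r is given as a description. Condition took 91.1% of the sum of squares of SPRY4 over the arrays, 80.8% of that of SPRY2 and 80.9% of that of SPRY1, and run took 4.17% to 7.13%. These shares, here and below, have no share over all probes beside them. Some share falls to condition and to run even where neither has an effect.

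**Figure D2:**
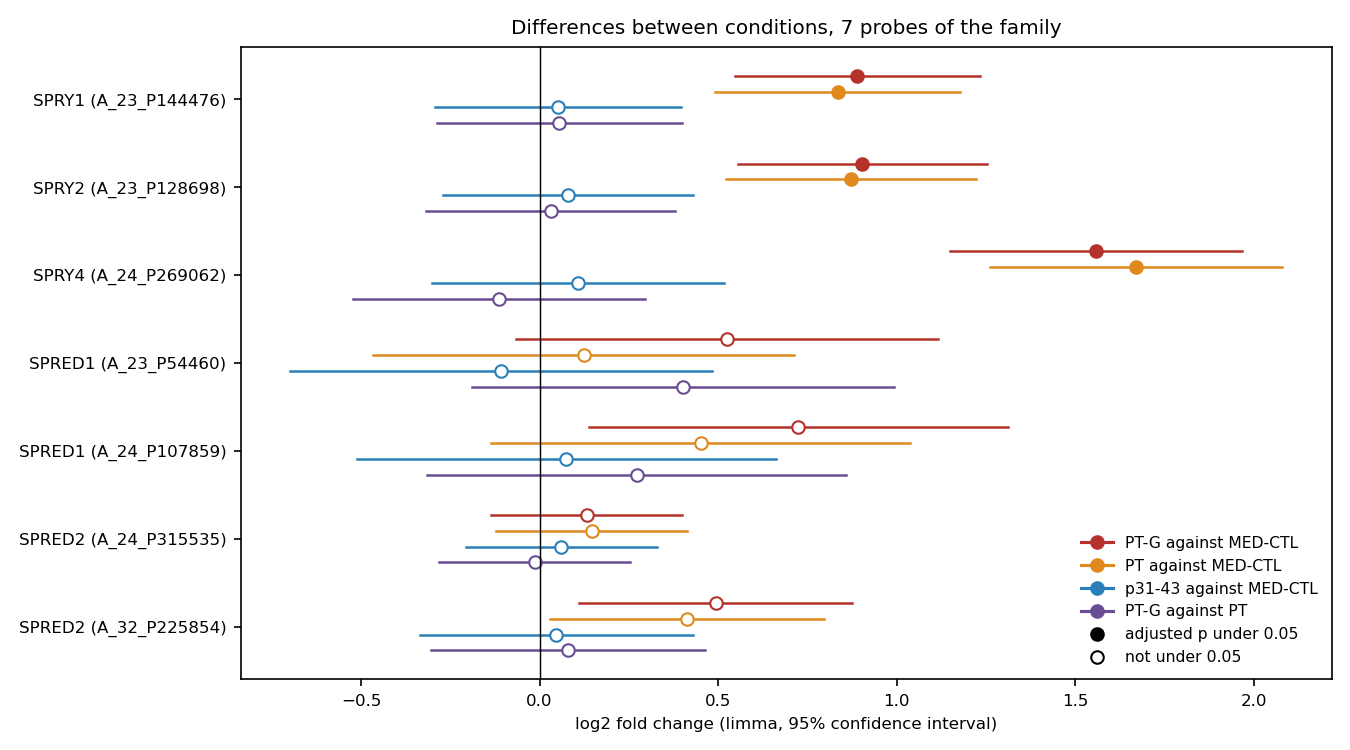
Log2 fold change (x axis) of the 7 probes in 4 comparisons, with the 95% confidence interval from limma without a block as a line and a filled point where the adjusted p was under 0.05. Only the PT-G and PT differences from MED-CTL of SPRY1, SPRY2 and SPRY4 are filled, and the intervals for p31-43 against MED-CTL and PT-G against PT include 0 for all 7 probes.

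SPRED1, which couples RAS to neurofibromin and whose loss causes Legius syndrome, was higher on average with enzymes but overlapped between the conditions on both of its probes. On probe A_24_P107859 the log2 intensities were 8.83, 8.53, 9.79 and 9.16 on MED-CTL arrays 1 to 4 and 8.76, 9.16, 9.43 and 9.26 on the p31-43 arrays. They were 9.42, 9.39, 9.69 and 9.62 on the PT arrays and 9.29, 9.45, 10.44 and 10.03 on the PT-G arrays. The array of run 3 was the highest of its condition in all 4 groups, and MED-CTL replicate 3 was brighter than every PT array. The PT-G mean was 0.72 higher than that of MED-CTL (SE 0.27, limma, adjusted p = 0.413) and the PT mean 0.45 higher (SE 0.27, limma, adjusted p = 0.723).
The PT-G difference was even from run to run, 0.62 to 0.87, and was called once the run was a block (limma, adjusted p = 0.0121) or the replicate number was (limma, adjusted p = 0.0254). The PT differences were 0.89, 0.56, −0.10 and 0.46 in runs 1 to 4, and the run block did not bring a call (limma, adjusted p = 0.0873). In run 3, where PT was lower than MED-CTL, the PT array lay on another slide than the other 3 arrays of its run. A block for the slide gave a PT difference of 0.57 (limma, adjusted p = 0.0247). The slide of PT replicate 3 held no MED-CTL array, so this fit sets that array only against p31-43 replicate 4. The part of the slide in the run 3 difference was not tested.
The other SPRED1 probe, A_23_P54460, gave 7.94, 7.83, 8.67 and 7.57 on MED-CTL arrays 1 to 4 and 7.71, 7.77, 8.40 and 7.69 on the p31-43 arrays. With enzymes it gave 8.02, 7.996, 8.31 and 8.17 for PT and 7.97, 8.20, 9.27 and 8.66 for PT-G. It too was highest in run 3 in every condition. Its differences from MED-CTL, 0.53 for PT-G (SE 0.27, limma, adjusted p = 0.737) and 0.12 for PT (SE 0.27, limma, adjusted p = 0.943), were not called, and the run block left them so (limma, adjusted p = 0.0853 and 0.715). The slide block called the PT-G difference (limma, adjusted p = 0.0357). Both SPRED1 probes are annotated to the same transcript, and their deviations from the condition means had an r of 0.84 over the 16 arrays.

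SPRED2, the related inhibitor of RAS signalling, was also measured by 2 probes of 1 transcript. Probe A_32_P225854 had log2 intensities of 10.05, 10.01, 10.41 and 9.86 on MED-CTL arrays 1 to 4 and 10.32, 9.93, 10.43 and 9.83 on the p31-43 arrays. The PT arrays had 10.91, 10.38, 10.41 and 10.28, and the PT-G arrays 10.56, 10.53, 10.90 and 10.31. Most arrays with enzymes lay in the upper part of the range, and all groups overlapped. The PT-G mean was 0.49 higher than that of MED-CTL (SE 0.18, limma, adjusted p = 0.366) and the PT mean 0.41 higher (SE 0.18, limma, adjusted p = 0.496).
Within the runs PT-G was 0.45 to 0.56 above MED-CTL, the narrowest spread between runs of the probes with a difference over 0.4, and the run block gave a call (limma, adjusted p = 0.0337), as did the replicate number as a block (limma, adjusted p = 0.0398). The PT differences ranged from 6e-04 in run 3 to 0.90 in run 1, and the run block gave none (limma, adjusted p = 0.0647). Blocking the slide, both were called, at 0.49 for PT-G (limma, adjusted p = 0.00576) and 0.56 for PT (limma, adjusted p = 0.00547). As for SPRED1, this block sets PT replicate 3 against no MED-CTL array, and the part of the slide was not tested.
The second SPRED2 probe, A_24_P315535, lay near background, at 6.26 to 6.88 over the 16 arrays, and was well above it on 15. Its mean differed from MED-CTL by 0.13 under PT-G and 0.15 under PT (SE 0.12 each, limma, adjusted p = 1.00 and 0.828). Run 4 gave the lowest array in every condition, and run took 71.3% of its sum of squares, against 12.6% for condition.

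**Figure D3:**
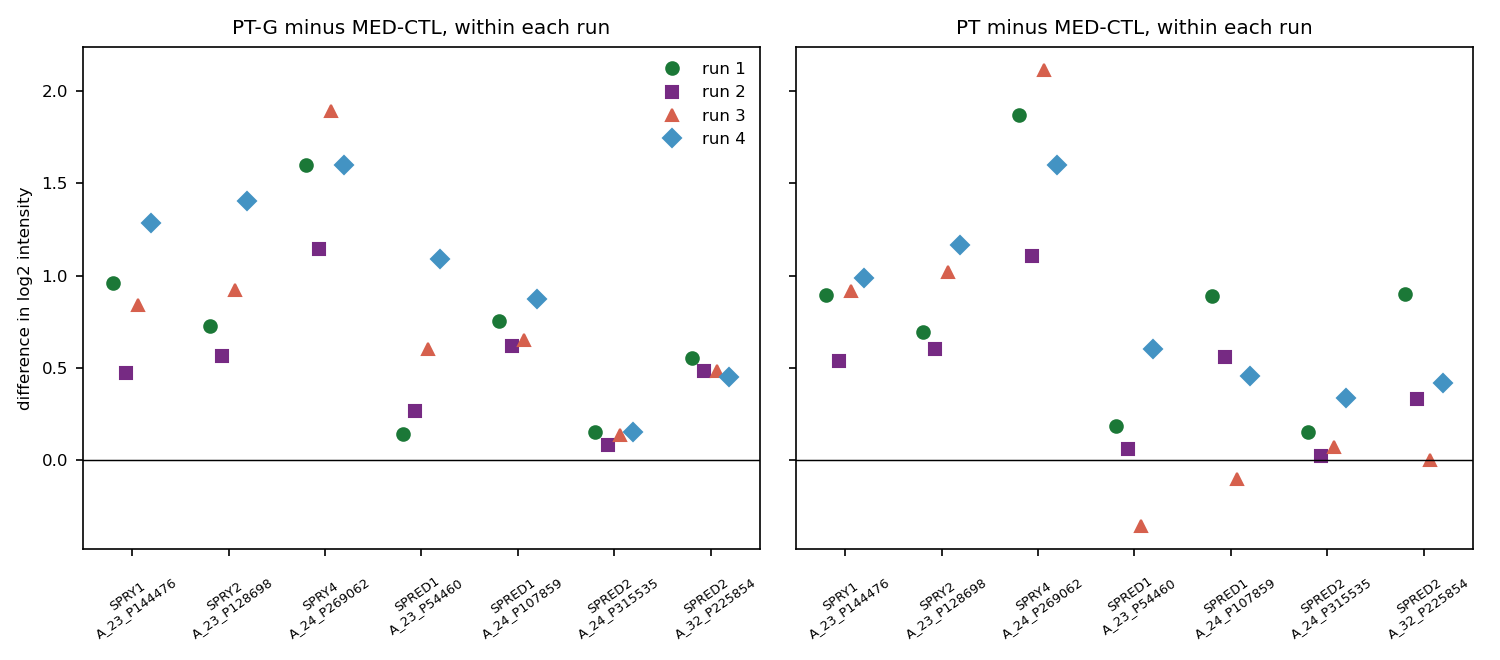
Difference in log2 intensity between the PT-G (left) or PT (right) array and the MED-CTL array of the same run (y axis) for the 7 probes (x axis), with 1 point per run. All 28 PT-G points lie above 0, while the SPRED1 probes of run 3 lie below 0 for PT and SPRED2 (A_32_P225854) of run 3 lies at 0.

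With PT-G, 7 of the 7 probes were higher than MED-CTL in all 4 runs, which 13.7% of all probes were, and with PT 5 of 7, which 10.8% of all probes were. Groups did not overlap for 3 of 7 probes in either comparison, those of SPRY1, SPRY2 and SPRY4, where 2.02% of all probes were without overlap and higher for PT-G and 2.28% for PT. With the run as a block 5 of 7 probes were called for PT-G, where 3.18% of all probes were called higher, and 3 of 7 for PT, where it was 3.06%. The 2 that the block added were SPRED1 (A_24_P107859) and SPRED2 (A_32_P225854). Condition took 40.4% and run 47.2% of the sum of squares of that SPRED1 probe, and 47.5% and 34.4% of that of the SPRED2 probe.

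**Figure D4:**
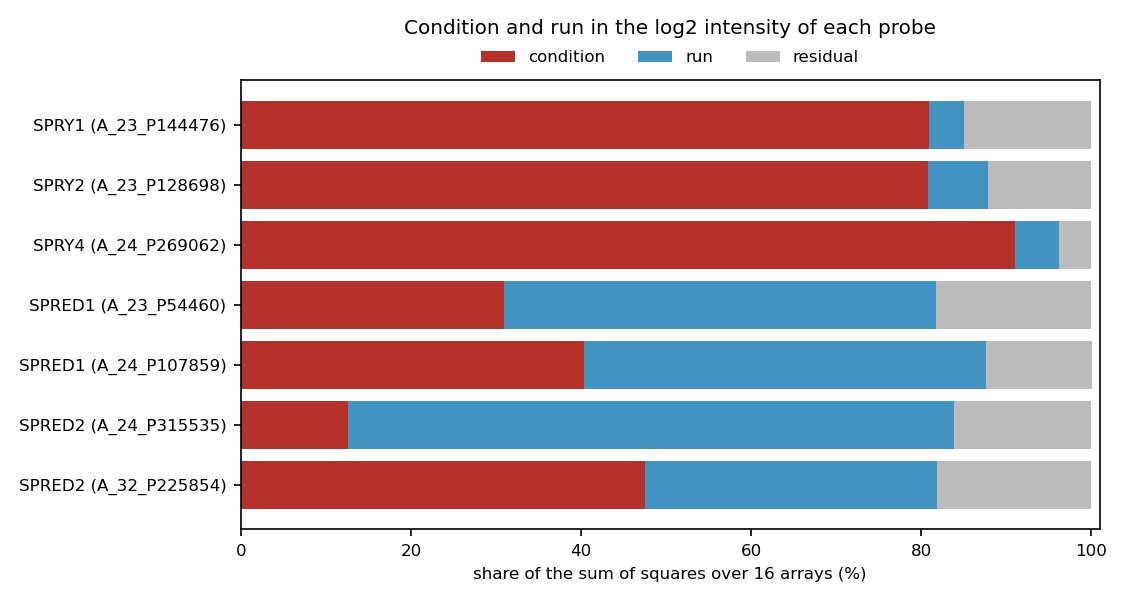
Share of the sum of squares of the log2 intensity over 16 arrays (x axis, in percent) that lay between conditions, between runs and in the residual, for the 7 probes. Condition takes 80.8% to 91.1% for the 3 Sprouty probes, and run takes 34.4% to 71.3% for the 4 SPRED probes.

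The peptide p31-43 left the family close to its level in medium. None of the 7 probes was called against MED-CTL in limma, 0 had an unadjusted p under 0.05, and the changes lay between −0.11 and 0.11. Of all probes 0% were called in this comparison, and 881 had an unadjusted p under 0.05. The 95% confidence interval of the difference was −0.30 to 0.52 for SPRY4, −0.27 to 0.43 for SPRY2 and −0.29 to 0.40 for SPRY1, so that a rise as large as those under PT-G and PT lay outside it for each. For SPRED1 (A_24_P107859) it was wider, −0.51 to 0.66.

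Compared directly, none of the 7 probes was called between PT-G and PT. In limma without a block 0 of 7 were called and 0 had an unadjusted p under 0.05, with 0% called and 312 at an unadjusted p under 0.05 over all probes. With the run as a block SPRED1 (A_23_P54460) had an unadjusted p of 0.0275 (0.40, SE 0.16, limma, adjusted p = 0.900). That fit also called 0% of all probes. The intervals below are those without a block. SPRY4 was 0.11 lower with PT-G than with PT (log2 difference −0.11, 95% confidence interval −0.52 to 0.30), SPRY2 differed by 0.03 (−0.32 to 0.38) and SPRY1 by 0.06 (−0.29 to 0.40). Differences inside these intervals are not excluded by the 4 arrays a group. The largest point difference was that of SPRED1, 0.40 on A_23_P54460 (−0.19 to 0.99) and 0.27 on A_24_P107859 (−0.31 to 0.86). It was largest in run 3 (0.96 and 0.75), and in run 1 PT-G was the lower on both probes. Without PT-G replicate 3 it fell to 0.15 and 0.06, and with a slide block it was 0.22 and 0.16. The slide of PT replicate 3 held no PT-G array, and the part of the slide was not tested.

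The Sprouty genes were also higher with the enzyme preparations than with the peptide. Against p31-43, SPRY4 was 1.45 higher with PT-G and 1.56 higher with PT (SE 0.19, limma, adjusted p = 0.00217 and 0.00192). SPRY1 was 0.84 and 0.78 higher (SE 0.16, limma, adjusted p = 0.0215 and 0.0384), and SPRY2 0.82 and 0.79 higher (SE 0.16, limma, adjusted p = 0.0251 and 0.0388). Called were 3 of 7 probes in both, where 0.686% of all probes were called higher for PT-G and 0.41% for PT. For the same 3 the arrays did not overlap, where 2.97% of all probes were higher without overlap for PT-G and 2.55% for PT. Run by run, 6 of 7 probes were higher with PT-G in all runs, against 15.5% of all probes, and 4 of 7 with PT, against 10.6%. With the run as a block 6 of 7 were called for PT-G, where 3.16% of all probes were, the block adding SPRED1 on both probes (limma, adjusted p = 0.0380 and 0.0194) and SPRED2 (A_32_P225854; limma, adjusted p = 0.0491). With the replicate number as a block in its place, SPRED1 (A_24_P107859) was called (limma, adjusted p = 0.0372), and SPRED1 (A_23_P54460) and SPRED2 (A_32_P225854) were not (limma, adjusted p = 0.0510 and 0.0557). Without p31-43 replicate 2, the highest p31-43 array for the 3 Sprouty genes, SPRY2 was 0.96 and 0.93 and SPRY1 0.95 and 0.90 higher with PT-G and PT. With PT, the calls of SPRY1 and SPRY2 were kept without this array and lost without any of the other 7 (limma, highest adjusted p = 0.133). With PT-G, that of SPRY2 was kept without it or PT-G replicate 3 and that of SPRY1 without it, PT-G replicate 1 or p31-43 replicate 1, and both were lost without any other (limma, highest adjusted p = 0.0854). The SPRY4 calls were kept without each single array (limma, highest adjusted p = 0.0116).

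In order of level SPRY4 stood at PT, PT-G, p31-43 and MED-CTL, and SPRY1 and SPRY2 at PT-G, PT, p31-43 and MED-CTL. In each order only the step from the enzyme preparations to p31-43 was called, and the neighbours PT and PT-G, and p31-43 and MED-CTL, did not differ beyond their spread. For SPRED1 (A_24_P107859) and SPRED2 (A_32_P225854) the order was PT-G, PT, p31-43 and MED-CTL, with no neighbours that differed by the test without a block. SPRY3, the remaining Sprouty gene, had 2 probes that were well above background on 14 and 4 of the 16 arrays, and neither was called. No probe on the array is named SPRED3.

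The pathway around these genes was described with 3 lists, chosen with earlier results of these data known. Of 31 measured genes of the RAS-ERK cascade, from receptors to the kinases and the transcription factors ELK1 and SRF, 0 were called higher and 0 lower with either enzyme preparation in limma, with 1 at an unadjusted p under 0.01 for PT-G and 0 for PT. The median change was −0.07 for PT-G and −0.09 for PT. Of 17 measured genes in the list of partners and regulators of Sprouty and SPRED proteins 0 were called in either direction. In either comparison 0 had an unadjusted p under 0.01. This list also holds the family gene SPRY3. Of all probes 0.583% were called higher and 0.346% lower for PT-G, and 0.434% and 0.395% for PT. A count of 0 in lists of this length lies near these shares. With the run as a block 3.18% of all probes were called higher and 2.55% lower for PT-G. For PT it was 3.06% higher and 3.44% lower. In both lists together there were then still 0 calls for PT-G, and 3 for PT, a count near these shares. The 3 were named after their values were seen. These were the ubiquitin ligase SIAH2 (0.64, limma, adjusted p = 0.0183) among the partners, and RPS6KA1, a kinase that ERK activates (0.42, limma, adjusted p = 0.0297), and the receptor FGFR3 (−0.26, limma, adjusted p = 0.0372) in the cascade. NF1, the RAS inactivator that SPRED proteins recruit, differed by 0.25 and 0.09 (SE 0.22), GRB2 by 0.17 and 0.10 (SE 0.12) and CBL by 0.40 and 0.42 (SE 0.22) with PT-G and PT.

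Of 26 measured transcripts known to respond to ERK, 9 rose and 0 fell with each of PT-G and PT against MED-CTL, with a median change of 0.90 and 0.71. Over all probes 0.583% were called higher for PT-G and 0.434% for PT. With the run as a block 16 of 26 were called higher for each, where 3.18% and 3.06% of all probes were. IER3, an early response gene, rose by 2.89 (SE 0.24, limma, adjusted p = 6.26e-05) with PT-G and by 2.80 (SE 0.24, limma, adjusted p = 8.84e-05) with PT. Of 4 phosphatases of ERK in the list 3 rose, DUSP5 by 1.83 and 1.64 (SE 0.18, limma, adjusted p = 0.000322 and 0.000719), DUSP6 by 1.59 and 1.38 (SE 0.24, limma, adjusted p = 0.00587 and 0.0155) and DUSP4 by 0.86 and 0.73 (SE 0.13, limma, adjusted p = 0.00546 and 0.0162), and DUSP7 did not pass the test (0.06 and 0.04, SE 0.29, limma, adjusted p = 1.00 and 0.983). The DUSP7 probe was dim, and well above background on 14 of the 16 arrays. Among AP-1 subunits JUNB rose by 1.78 and 1.54 (SE 0.27, limma, adjusted p = 0.00568 and 0.0150) and FOSL1 by 1.77 and 1.73 (SE 0.35, limma, adjusted p = 0.0295 and 0.0368). ERRFI1, which inhibits the EGF receptor, rose by 1.08 and 1.00 (SE 0.13, limma, adjusted p = 0.00141 and 0.00285). PHLDA1 rose by 1.08 and 0.77 (SE 0.12, limma, adjusted p = 0.00068 and 0.00716) and HBEGF, a ligand of the EGF receptor, by 0.94 and 1.01 (SE 0.13, limma, adjusted p = 0.00283 and 0.00222). FOS, 1.01 and 0.67 higher (SE 0.44), and EGR1, 0.76 and 0.41 higher (SE 0.54), were not called. With p31-43 0 of the 26 were called in limma, as were 0% of all probes, and the median change of the 26 was 0.02.

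**Figure D5:**
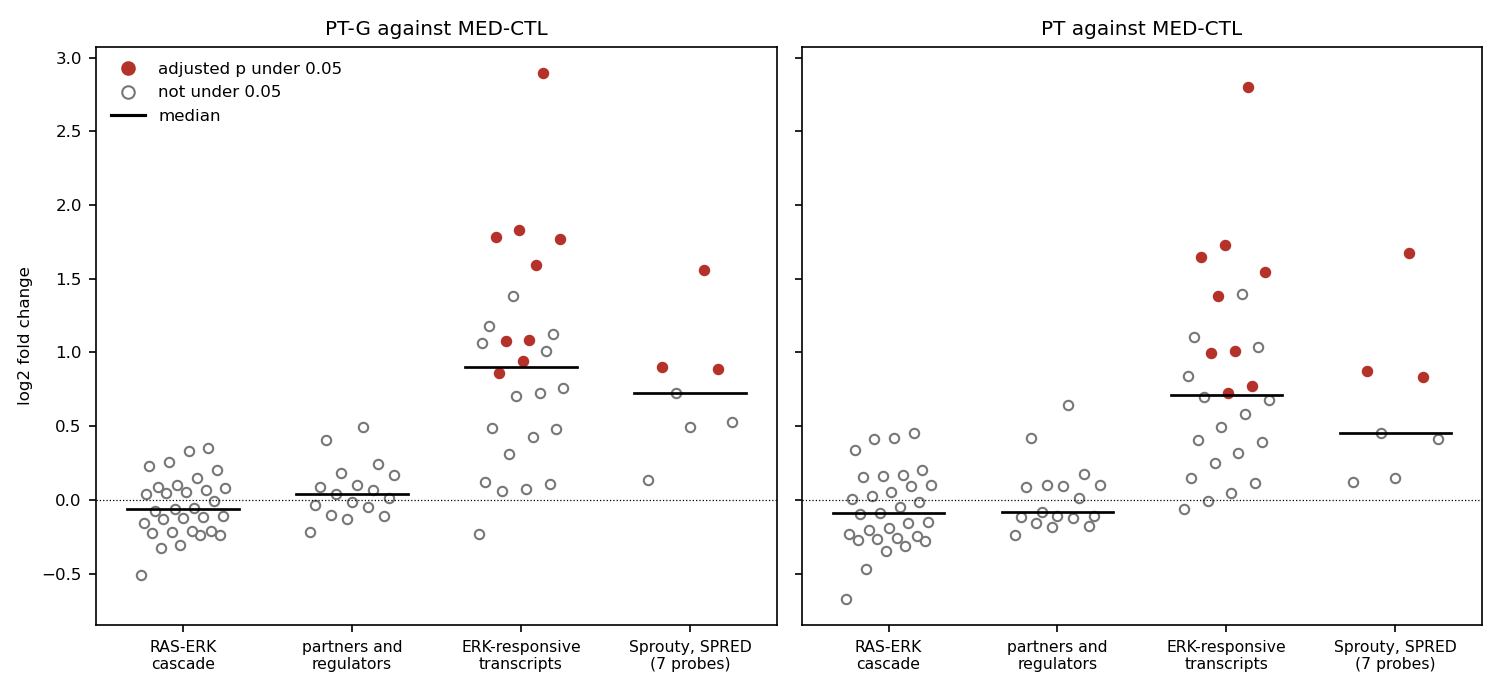
Log2 fold change (y axis) of PT-G (left) and PT (right) against MED-CTL for the genes of 3 lists and the 7 Sprouty and SPRED probes (x axis), with 1 point per gene or probe, a line at the median and filled points where the adjusted p was under 0.05. Filled points are seen among the ERK-responsive transcripts (9 of 26) and the Sprouty probes (3). None are seen among the 31 cascade genes or the 17 genes of the partner list, which holds SPRY3. Of all probes 0.583% were called higher and 0.346% lower for PT-G, and 0.434% and 0.395% for PT.

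The genes whose log2 intensity followed that of a member most closely were sought among 19096 probes well above background on all arrays, by Pearson r over the 16 arrays. The points share the 4 conditions and the runs, and no p is given. SPRY4 was followed by GDF15 (r = 0.986), HBEGF (0.971) and DUSP5 (0.971), and SPRY1 by SSTR2 (0.953), DUSP6 (0.952) and ZNF232 (0.946). SPRY2 was followed by IRF5 (0.950), GDF15 (0.947) and EDN1 (0.946). For these genes r largely restates the gap between arrays with and without enzymes. SPRED1 (A_24_P107859) was followed by KALRN (0.974), SPTY2D1 (0.956) and ZNF222 (0.954), and SPRED2 (A_32_P225854) by RHPN2 (0.947), SNF1LK (0.945) and AFF4 (0.943), where the arrays form no separate sets.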

How the data were processed

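RNA of 16 flasks of Caco-2 cells was hybridised to single-colour Agilent arrays. The authors quantified the spots with Feature Extraction 9.5.3.1, and the scanner files give the intensity of foreground and background on a linear scale. The log2 values the authors deposited equal the quantile-normalized median foreground without background correction (largest difference 5e-09) and were used as the main values. From 45015 spots per array 1639 controls and, over all arrays, 1774 spots marked as outliers were left out, spots of a probe were averaged, and 18 of 41000 probes with under 3 arrays in a group were dropped. The other 40982 were tested in limma 3.58.1 (R 4.3.3), with 12 residual and 1.9 prior degrees of freedom, 2-sided, in 6 comparisons with Benjamini-Hochberg adjustment in each. The study's methods call a nominal p under 0.01, which was an alternative. An exact permutation test with 4 arrays a group has 0.0286 as its smallest p and was not used. The number of arrays limits the precision, and the fit was tested on simulated data.

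The labels describe 4 independent experiments, and replicate numbers are those of the labels. Deviations of same-numbered arrays correlated over probes at 0.396 to 0.857 for PT-G with MED-CTL, 0.262 to 0.706 for p31-43 with MED-CTL, 0.578 to 0.835 for PT-G with p31-43, 0.154 to 0.601 for PT with p31-43, −0.003 to 0.412 for PT with MED-CTL and 0.052 to 0.696 for PT-G with PT. The numbers were taken to pair the arrays in the first 4, and the main test used no pairing. Correlations by run were 0.629 to 0.857 for PT-G with MED-CTL, 0.538 to 0.706 for p31-43 with MED-CTL and −0.003 to 0.621 for PT with MED-CTL. For PT-G and p31-43 with MED-CTL the lowest correlation was thus higher by run than by number. Alternatives were other background corrections and scalings, a filter on dim probes, marked spots kept, array weights (statmod 1.5.0), blocks for replicate, run or slide, a fit of 2 conditions, and leaving out each array. All probes of the members and of SPRY3 were named, with up to 8 called genes of each list for PT-G or PT against MED-CTL, NF1, GRB2, CBL and the 3 genes most alike each member, and 1 further gene that the rule names is not reported here. A gene of a list was taken by its brightest probe. DUSP4, DUSP7, EGR1, FOS, KRT20, SIAH2, RPS6KA1 and FGFR3, and the calls of CDX2 and COL3A1 with a run block, were named after their values were seen. The members and lists were chosen with earlier results of these data known. Promoter sequences are those of RefSeq, GRCh38.p14.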

Additional observations from a re-analysis of the deposited data

Results flagged for a closer look

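Of 28 groups of 4 arrays examined for 1 array far from the others (7 probes in 4 conditions), 2 had one, and chance alone gives about 1 in 20. For SPRED1 (A_23_P54460) the p31-43 array of replicate 3, at 8.40 against 7.69 to 7.77 on the others, had a gap of 0.884 of the range of its group. For SPRED2 (A_24_P315535) the PT-G array of replicate 4, at 6.42 against 6.83 to 6.88 on the others, had a gap of 0.894 of the range.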

How the results depend on the processing

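The counts of called probes among the 7 depended on how the spread was estimated. Against MED-CTL the 3 called for PT-G became 5 with the replicate block or a run block, 6 with a slide block and 1 when only the 2 conditions entered the fit. For PT the 3 became 5 with the slide and 0 with 2 conditions. Against p31-43 the 3 for PT-G became 6 with the run or the slide, 1 with 2 conditions and 1 with median scaling, and the 3 for PT became 5, 1 and 1 with the slide, 2 conditions and median scaling. Without single arrays each of these 4 counts ran from 1 to 3, and the counts of 0 for p31-43 against MED-CTL and PT-G against PT stayed 0. The replicate block changed no other count by over 1.5 times. With the background-subtracted signal SPRY2 lost its 4 calls (limma, adjusted p = 0.0844 to 0.0998). Median scaling shifted the median of all probes to −0.109 for PT against MED-CTL and to 0.106 for PT-G against p31-43, and the background-subtracted signal moved it to 0.11 for PT against p31-43.

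No called difference turned its sign. Of the uncalled ones, p31-43 against MED-CTL turned for SPRED2 to −0.0023 (A_32_P225854, background-subtracted signal), and to −0.11 with median scaling and −0.0111 with array weights (A_24_P315535). PT-G against PT turned for SPRY2 to −0.0062 (background-subtracted), −9e-04 (normexp) and −0.0086 (array weights), for SPRY1 to −0.0263 (array weights), and for SPRED2 to 0.0156 (A_24_P315535, median scaling), 0.0398 (same probe, array weights) and −0.0655 (A_32_P225854, slide). The cause was not tested. Without single arrays the p31-43 differences ran from −0.0558 to 0.22 for SPRY2, −0.0637 to 0.16 for SPRY1, −0.0638 to 0.28 for SPRY4, −0.28 to 0.11 and −0.11 to 0.31 for SPRED1 (A_23_P54460 and A_24_P107859), and −0.0547 to 0.12 and −0.0546 to 0.16 for SPRED2 (A_24_P315535 and A_32_P225854). PT-G against PT ran from −0.0808 to 0.0878 for SPRY2, −0.0369 to 0.12 for SPRY1, −0.0646 to 0.0951 and −0.0282 to 0.22 for SPRED2 in the same order, 0.15 to 0.59 and 0.06 to 0.44 for SPRED1 (A_23_P54460 and A_24_P107859), and PT against MED-CTL from −0.0201 to 0.35 for SPRED1 (A_23_P54460). Over all probes, calls for PT-G against MED-CTL ran from 36 to 3820 over the settings, with 381 in the setting reported, and for PT from 15 to 2840, with 340. Among the probes of the family, signal over background limits only SPRED2 (A_24_P315535) and SPRY3.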
